A study of Mus musculus with 2 samples.

Results

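The genes described here are the Cdk inhibitor genes Cdkn1a, Cdkn1b, Cdkn1c, Cdkn2c and Cdkn2d, 5 of the 32285 genes in the matrices, taken by name and followed through ciliary margin, progenitor, neurogenic and postmitotic cells. The data are single-cell RNA sequencing counts from mouse peripheral retina at stage E13.5, in 1 albino and 1 pigmented library, each made from 3 pooled embryos. Both groups carried α-Cre, a transgene active in the peripheral retina, together with a TdTomato reporter, and red fluorescent cells were collected by flow cytometry before library preparation. The albino embryos bear the strain label Swizz ICR. The pigmented embryos bear the strain label Tyrc2j, which is otherwise the name of an albino tyrosinase allele, so the label and the title disagree. The titles were followed. Pigmentation cannot be told apart from strain, embryo pool, sex of the embryos and library.

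The albino matrix held 3676 barcodes and the pigmented matrix 6089, of which 3474 and 5711 were kept, with medians of 11194 and 10319 unique molecular identifiers (UMIs, each standing for 1 captured transcript) per cell. Y-linked UMIs without Xist were seen in 0% of albino cells and in 46.1% of pigmented cells. The libraries shared 8 barcodes, 6 of them among kept cells. Cells were clustered without the 5 genes and classes were named from marker genes, with "-like" marking a class named in that way. CMZ-like cells (ciliary margin zone, the rim of the optic cup) numbered 357 and 813 in the albino and pigmented libraries, RPC-like cells (retinal progenitors) 1096 and 2066, and neurogenic-like cells 243 and 387. Precursor-like cells numbered 553 and 1046, and postmitotic cells 826 and 813, the last made up of retinal ganglion cell (RGC)-like, photoreceptor-like and amacrine or horizontal-like cells. Since classes were named from these markers, high marker levels in a class are no separate support for its name. The 9 neurogenic markers together stood at 12279 and 12424 CPM (UMIs per 1000000) in neurogenic-like cells, against 647 and 560.3 in RPC-like cells. All 11 CMZ markers had UMIs in CMZ-like cells, at 942 and 1052 CPM, against 231 and 228 in RPC-like cells. Of the photoreceptor markers Rcvrn was at 0 in photoreceptor-like cells of both libraries, and of the amacrine or horizontal markers Gad1 was at 0 in its class.

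Cyclin-dependent kinases drive cells through the division cycle, and Cdk inhibitors hold them back. The Cip/Kip genes Cdkn1a, Cdkn1b and Cdkn1c encode proteins that bind cyclin-kinase complexes, while the Ink4 genes Cdkn2c and Cdkn2d encode proteins that bind the Cdk4 and Cdk6 kinases and keep D-type cyclins off them. In the mouse retina Cdkn1b and Cdkn1c act in different progenitors as they leave the cycle, Cdkn1c also marks a subset of amacrine cells, and Cdkn2d together with Cdkn1b keeps neurons from dividing again.

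Levels are given as CPM: all UMIs of the gene in a class, divided by all UMIs of that class and multiplied by 1000000. Levels are compared for 1 gene across cells, not between genes. Brackets hold exact 95% intervals that cover counting error only. With 1 library per group there are no replicates and no test was made, so each library stands as a separate description. A difference was counted as called when it reached 1.5-fold with at least 20 UMIs over both sides.

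Cdkn1c had its highest retinal level in amacrine or horizontal-like cells, with 963 [888 to 1043] CPM in the albino and 985 [927 to 1045] in the pigmented library. CMZ-like cells came next, at 490.3 [472 to 509] and 617 [604 to 631]. RGC-like cells held 247 and 241 CPM, photoreceptor-like cells 258 and 269, and precursor-like cells named from a list with Otx2 and Neurod genes 248 and 230.3. These 3 classes could not be ordered, since their intervals overlapped in both libraries. RPC-like cells followed at 170.1 [163 to 177] and 160.3 [155 to 166], then precursor-like cells named from a list with Dlx and Gal genes at 140.0 [128 to 153] and 139 [130 to 149]. Neurogenic-like cells were lowest at 104 [92.5 to 117] and 136 [126 to 148], and in the pigmented library their interval overlapped that of the Dlx or Gal precursors. Outside the retina, mesenchyme-like cells held 931 and 1001 CPM of Cdkn1c and immune-like cells 3.50 and 17.6.

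**Figure D1:**
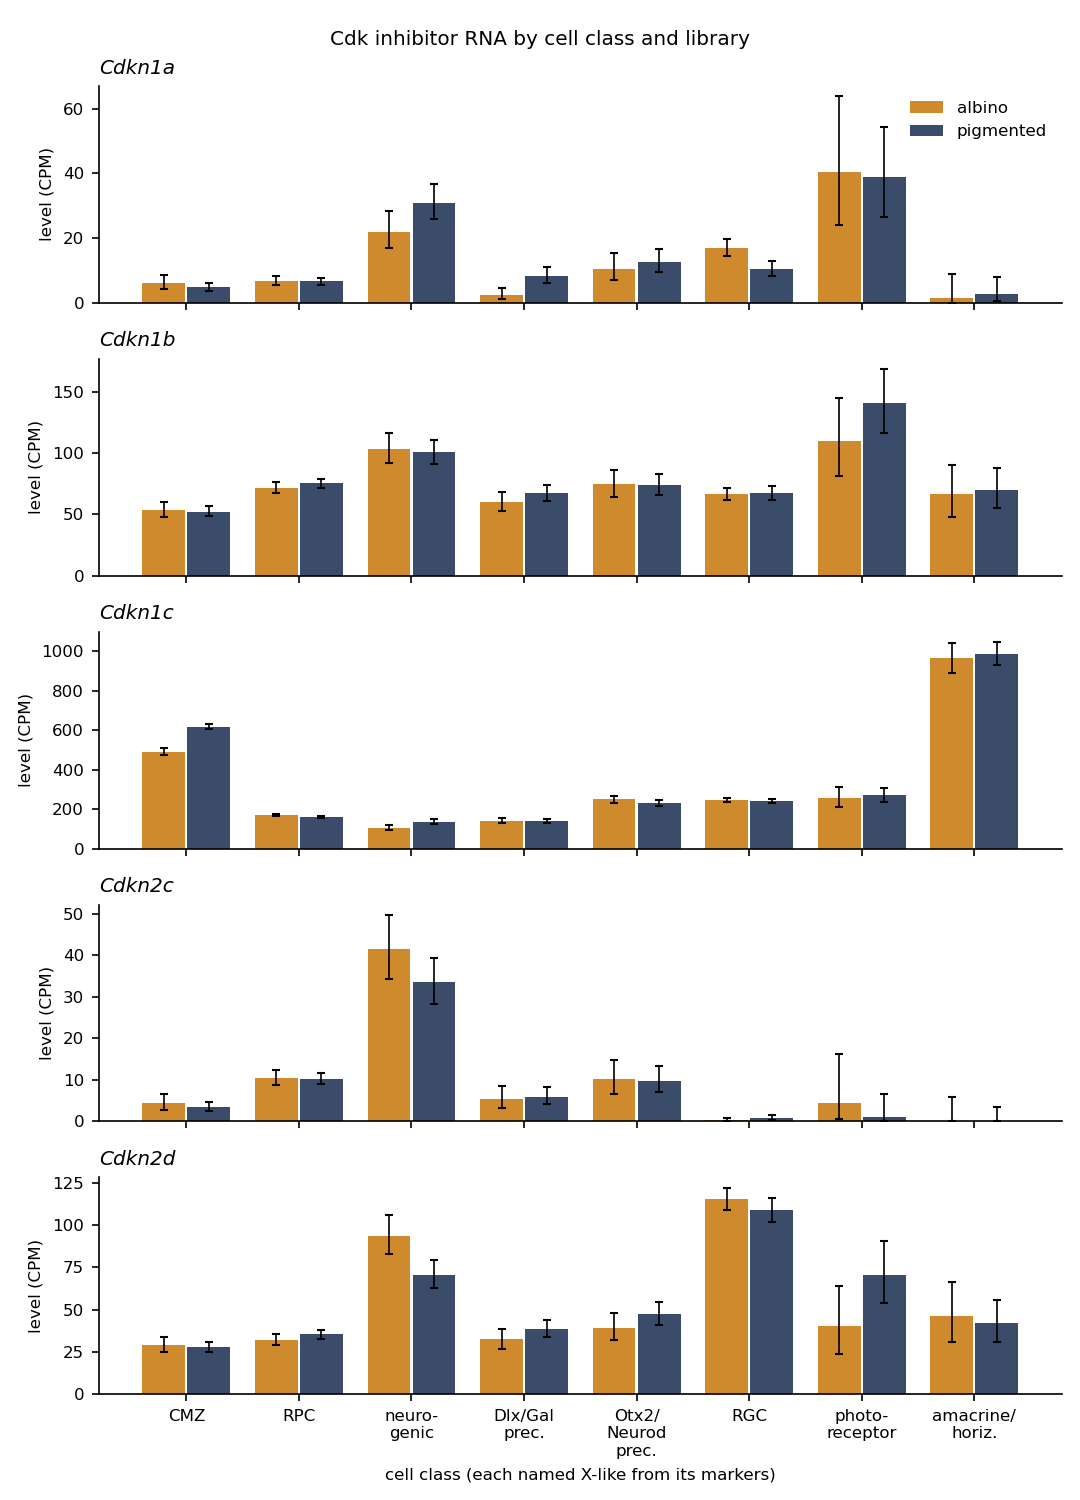
Level of each Cdk inhibitor gene (CPM, linear axis) in 8 classes of retinal cells, with the albino library in orange on the left of each pair and the pigmented library in blue on the right. Bars start at 0 and error bars are exact 95% Poisson intervals. Cdkn1c stands highest in amacrine or horizontal-like cells (963 and 985) and CMZ-like cells (490.3 and 617), while Cdkn2c stands highest in neurogenic-like cells (41.5 and 33.5).

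Cdkn1a was highest in photoreceptor-like cells, at 40.3 [23.9 to 63.8] CPM in albino and 38.7 [26.7 to 54.4] in pigmented cells, which rests on 18 and 33 UMIs. Neurogenic-like cells held 22.0 [16.8 to 28.2] and 30.9 [25.9 to 36.7], and the intervals of these 2 classes overlapped in both libraries. Amacrine or horizontal-like cells were lowest, with 1 and 3 UMIs. Cdkn1b varied least: its levels lay between 53.6 in CMZ-like and 110 in photoreceptor-like cells of the albino library, and between 52.3 and 141 in the same classes of the pigmented library. Cdkn2c reached 41.5 [34.2 to 49.8] and 33.5 in neurogenic-like cells, against 10.5 and 10.3 in RPC-like cells and 0.29 and 0.75 in RGC-like cells. Amacrine or horizontal-like cells had 0 UMIs of Cdkn2c in both libraries, which at 3 counts allows levels of up to 4.77 and 2.74 CPM. Cdkn2d was highest in RGC-like cells, at 115 [109 to 122] and 109 [102 to 116], followed in the albino library by neurogenic-like cells at 93.7 [82.7 to 106]. In the pigmented library neurogenic-like cells at 70.7 [62.9 to 79.1] and photoreceptor-like cells at 70.4 [53.7 to 90.6] had overlapping intervals. It was lowest in CMZ-like cells, at 29.2 and 27.7, and in the albino library the RPC-like level of 32.3 did not differ from that beyond counting error.

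Ciliary margin cells were set against retinal progenitors first. In each library 1 of the 5 genes, Cdkn1c, was called higher and 1, Cdkn2c, lower, while among all genes measured 7.42% were called higher and 9.92% lower in the albino library, and 8.51% higher and 11.3% lower in the pigmented library. The median log2 ratio of the 5 genes was −0.14 in the albino and −0.46 in the pigmented library, against −0.02 and −0.06 over all genes. Cdkn1c was 2.88-fold [2.72 to 3.05] higher in albino and 3.85-fold [3.70 to 4.01] higher in pigmented CMZ-like cells. Cdkn2c stood at 4.40 CPM in albino CMZ-like against 10.5 in RPC-like cells, a ratio of 0.42 [0.26 to 0.65], and the pigmented ratio was 0.34 [0.24 to 0.47]. Cdkn1b was below its RPC-like level in both libraries without reaching 1.5-fold, at ratios of 0.75 [0.65 to 0.85] and 0.69 [0.63 to 0.76]. Cdkn2d had ratios of 0.90 [0.75 to 1.09] and 0.78 [0.69 to 0.89]. A coarser clustering (Leiden resolution 0.6) took Cdkn1b to 0.61 and 0.58 and pigmented Cdkn2d to 0.5997, past the 1.5-fold limit.

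Cdkn1a in the ciliary margin rested on few cells. In the albino library 54.5% of its 33 UMIs came from 1 CMZ-like cell, and the CMZ-like over RPC-like ratio of 0.90 [0.59 to 1.36] became 0.49 without the cell with the most UMIs of the gene in each class. In the pigmented library, where 15.3% of the 59 UMIs came from 1 cell, the ratio was 0.72 [0.52 to 0.98], and it was 1.85 when only cells with Xist and without Y-linked UMIs were kept. Under the alternatives the albino ratio ranged from 0.42 to 1.78, so no direction is given for Cdkn1a in the ciliary margin.

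The Cdkn1c difference was also seen cell by cell. After every cell was thinned to 5000 UMIs, 74.1% of albino and 83.4% of pigmented CMZ-like cells kept at least 1 Cdkn1c UMI, against 46.8% and 45.9% of RPC-like cells. Cells with at least 5 UMIs made up 17.1% and 24.5% of CMZ-like cells, against 1.54% and 1.43% of RPC-like cells. Immune-like cells kept a Cdkn1c UMI in 0% of albino and 5.26% of pigmented cells after the same thinning, from median depths of 9579 and 7511 UMIs, where CMZ-like cells had 13667 and 14087. These immune-like shares rest on few cells, at most 29 albino and 26 pigmented. Mesenchyme markers were near 0 in CMZ-like cells of both libraries: 6 of 8 had UMIs, Foxc1 was at 0, and the list summed to 3.30 and 3.16 CPM, against 3015 and 2878 in mesenchyme-like cells.

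**Figure D2:**
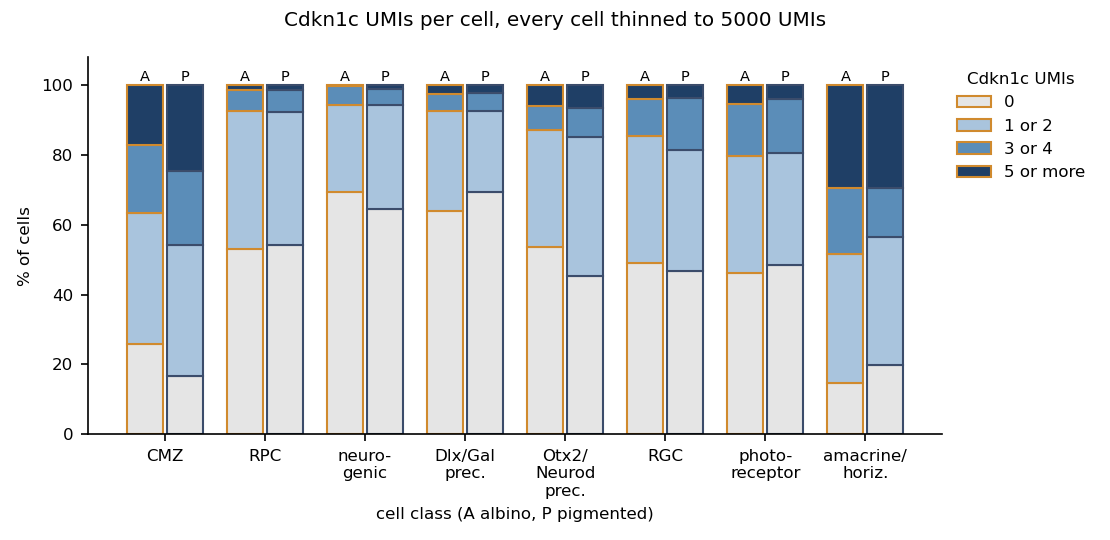
Share of cells (%) with 0, 1 to 2, 3 to 4, and 5 or more Cdkn1c UMIs after thinning each cell to 5000 UMIs, as stacked bars for each retinal class, with the albino library (A) left of the pigmented library (P). The share at 5 or more is 17.1% and 24.5% in CMZ-like cells and 29.4% in amacrine or horizontal-like cells of both libraries, against 0.43% and 1.07% in neurogenic-like cells.

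Within the CMZ-like class the genes differed between clusters. Cluster 4, led by Aldh1a1, Sgk1 and Gja1, had few UMIs of 18 G2/M genes (genes of late division), at 327 and 376 CPM, while cluster 10 had 3197 and 3016. Cdkn1c was at 730.3 and 772 CPM in cluster 4, against 367 and 446 in cluster 10, ratios of 1.99 [1.82 to 2.18] and 1.73 [1.64 to 1.83]. Cdkn1a followed the same direction, with 17.1 against 1.36 CPM in the albino and 8.84 against 2.45 in the pigmented library, on 28 and 3 UMIs and on 44 and 10 UMIs. A single albino cell held 18 of the 28 UMIs, and without the top cell of each cluster the levels were 6.18 against 0.92 CPM in the albino and 7.05 against 1.23 in the pigmented library, on 10 and 2 UMIs and on 35 and 5 UMIs. Cdkn2d ran the other way, with ratios of 0.46 [0.29 to 0.70] and 0.52 [0.40 to 0.67]. Cdkn2c had 2 UMIs in albino and 4 in pigmented cluster 4, against 14 and 25 in cluster 10. Cluster 14, the remaining CMZ-like cluster, had more G2/M UMIs still, at 6236 and 5092 CPM. Relative to it, cluster 4 had Cdkn1c ratios of 1.76 [1.60 to 1.94] and 1.30 [1.23 to 1.37] and Cdkn2d ratios of 0.72 [0.43 to 1.18] and 0.65 [0.49 to 0.87]. These cluster pairs, and those named further on, were chosen after the cluster values had been seen.

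**Figure D3:**
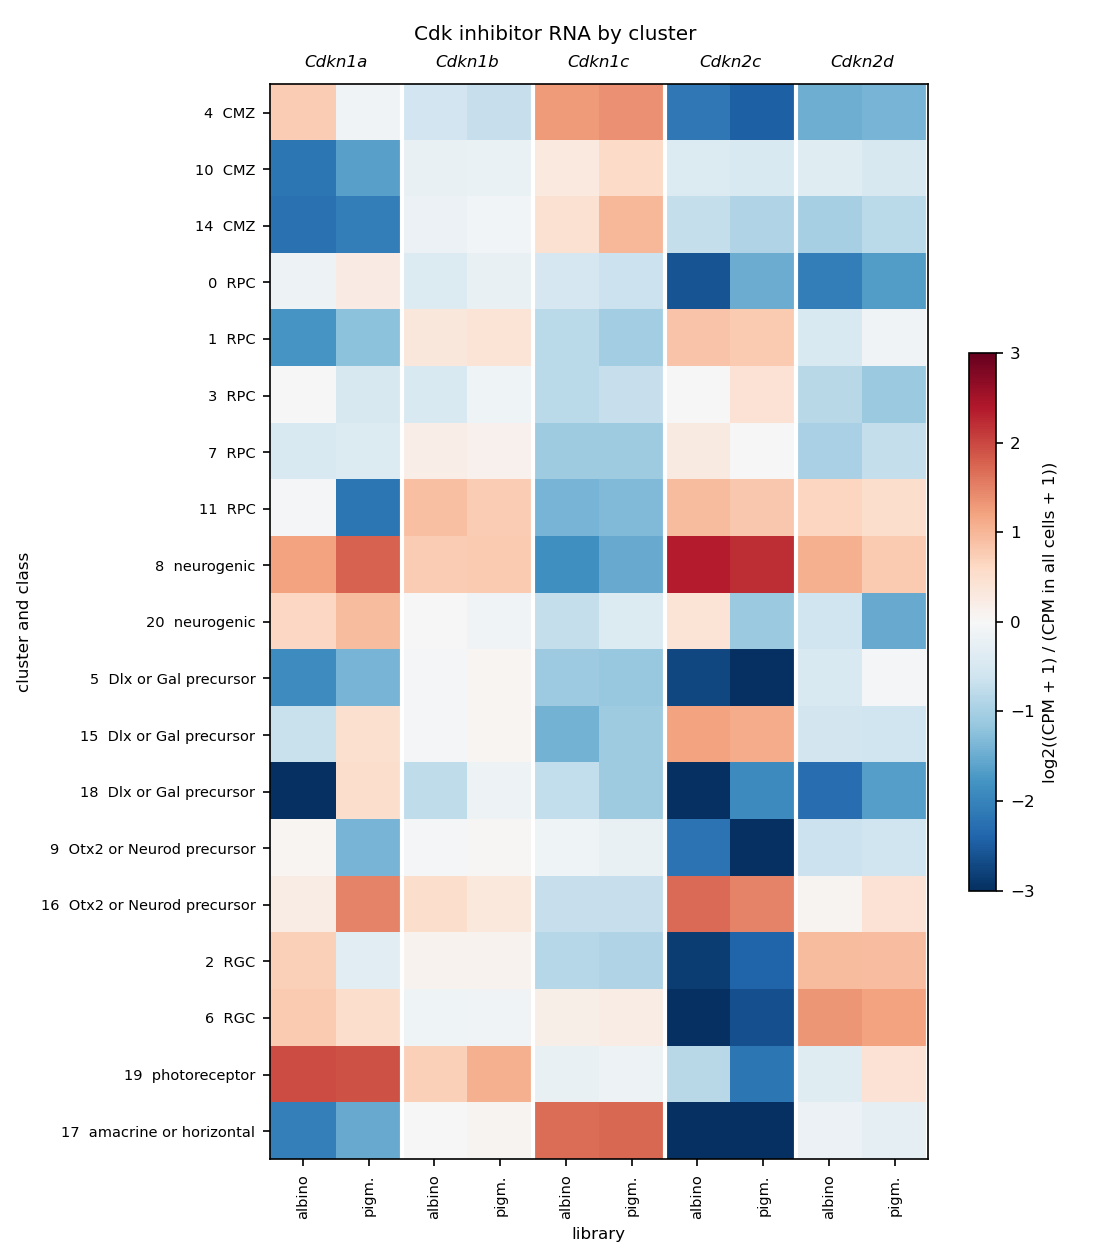
Heat map of log2 level over the level in all cells of both libraries together (1 CPM added to both) for the 5 genes in 19 named retinal clusters, with an albino and a pigmented value for each cluster and colours from −3 to 3. Cdkn1c is high in the CMZ-like clusters and in cluster 17 (amacrine or horizontal-like), slightly above its all-cell level in RGC-like cluster 6 and below it in RGC-like cluster 2. Cdkn2c lies below its all-cell level in every postmitotic cluster.

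Neurogenic-like cells carry the genes that start neuron formation and were next set against progenitors. In the albino library 3 of the 5 genes were called higher and 1 lower, and in the pigmented library 3 were higher and 0 lower. Among all genes measured 11.0% and 10.6% were called higher and 26.0% and 25.2% lower. The median log2 ratio of the 5 genes was 1.54 in the albino and 1.001 in the pigmented library, against −0.09 and −0.11 over all genes. Cdkn1a, known as a target of p53, was 3.28-fold [2.33 to 4.61] and 4.67-fold [3.66 to 5.95] higher. Cdkn2c was 3.96-fold [3.06 to 5.11] and 3.25-fold [2.62 to 4.02] higher. Cdkn2d was 2.90-fold [2.47 to 3.39] and 1.997-fold [1.74 to 2.28] higher. Cdkn1b was above its RPC-like level by less than the 1.5-fold limit, at 1.44 [1.26 to 1.65] and 1.33 [1.20 to 1.48]. Cdkn1c was lower, with ratios of 0.61 [0.54 to 0.69] in the albino and 0.85 [0.78 to 0.93] in the pigmented library. The coarser clustering moved the pigmented Cdkn1c ratio to 0.55. A stricter naming rule, which leaves out the cluster with G2/M genes described below as cluster 8, gave 1.14 and 0.34 for Cdkn2c, 1.06 and 0.50 for Cdkn2d, 1.06 and 1.40 for Cdkn1c, 0.93 and 0.82 for Cdkn1b, and 2.29 and 2.93 for Cdkn1a.

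In single cells the Cdkn1a UMIs were uneven here too. After thinning, 6.93% of albino and 9.89% of pigmented neurogenic-like cells kept a Cdkn1a UMI, against 1.63% and 1.79% of RPC-like cells, and 1 cell held 24.6% of albino and 11.4% of pigmented neurogenic-like UMIs. Cdkn2c was kept in 17.3% and 12.03% of neurogenic-like cells, against 5.10% and 5.31% of RPC-like cells and 0.15% and 0.56% of RGC-like cells. Cdkn2d was kept in 35.9% and 27.8% of neurogenic-like cells, against 12.2% and 14.8% of RPC-like cells. Cdkn1b was kept in 42.9% and 39.0% of neurogenic-like cells, against 30.3% and 31.4%.

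The neurogenic-like class holds cluster 8, led by Neurog2, Sstr2 and Mybl1 with 7579 and 7429 CPM of G2/M genes, and cluster 20, led by Cck and Gadd45g with 947 and 862. Cdkn2c was at 49.4 and 44.3 CPM in cluster 8, against 11.9 and 3.53 in cluster 20, the last on 7 and 4 UMIs. Cdkn2d was at 110 and 89.8, against 34.1 and 17.7, ratios of 3.21 [2.03 to 5.36] and 5.09 [3.23 to 8.46]. Cdkn1b had ratios of 1.70 [1.21 to 2.45] and 1.86 [1.43 to 2.43]. Cdkn1c ran the other way in both libraries, at 83.6 and 104.5 CPM in cluster 8 against 181 and 225 in cluster 20, a ratio of 0.46 in each. The higher Ink4 levels of the neurogenic-like class were thus measured in its cluster with G2/M genes. In cluster 20 Cdkn2d was near the RPC-like level of 32.3 in the albino library and below that of 35.4 in the pigmented library. Among RPC-like clusters with G2/M genes, cluster 11 had 8361 and 9062 CPM of them and cluster 7 had 7304 and 6386. Cdkn2d was at 81.0 and 74.6 CPM in cluster 11 and at 25.8 and 31.1 in cluster 7. Cdkn2c was at 17.9 and 16.2 in cluster 11 and at 10.8 and 8.95 in cluster 7. Cdkn1b was at 126 and 113 in cluster 11 and 76.8 and 72.8 in cluster 7, beside 113 and 115 in cluster 8.

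Within classes, cells were ranked by the share of their UMIs in the G2/M genes and cut into 3 groups of equal size. In RPC-like cells, with 366 albino and 689 pigmented cells per group, Cdkn2c was at 16.9 CPM in the highest albino group against 2.81 in the lowest, a ratio of 6.01 [3.10 to 13.0], and the pigmented ratio was 3.82 [2.45 to 6.18]. Cdkn2d had ratios of 3.19 [2.38 to 4.34] and 2.87 [2.35 to 3.53]. Cdkn1b had ratios of 2.08 [1.74 to 2.49] and 1.60 [1.41 to 1.81]. These 3 genes thus stood higher in progenitors with many G2/M UMIs, and the other 2 stood lower there. Cdkn1c was at 135 CPM in the highest albino group against 209 in the lowest, ratios of 0.65 in both libraries. Cdkn1a had ratios of 0.34 [0.18 to 0.60] and 0.37 [0.24 to 0.55]. Ranking the same RPC-like cells by S phase genes (genes of DNA replication) gave other values. Cdkn1b was then lower in the highest group, at 0.78 [0.66 to 0.92] and 0.88 [0.78 to 0.998]. Cdkn2d had ratios of 0.90 [0.69 to 1.16] and 0.70 [0.59 to 0.85], and Cdkn2c 1.13 [0.71 to 1.79] and 1.70 [1.22 to 2.38].

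Neurogenic-like cells gave the same signs for 4 genes. Their ratios were 1.67 and 2.096 for Cdkn1b, 0.46 and 0.39 for Cdkn1c, 3.19 and 9.21 for Cdkn2c, and 3.77 and 6.01 for Cdkn2d. Cdkn1a was the exception, at 0.93 [0.50 to 1.74] and 1.24 [0.80 to 1.96]. In precursor-like cells Cdkn1a was higher in the group with the most G2/M UMIs, at 3.89 [1.56 to 11.6] and 4.72 [2.63 to 9.07], opposite to RPC-like cells, and the Cdkn1c ratio of 0.91 in each library had an interval that included 1. Of the 20 ratios in RPC-like and neurogenic-like cells, 18 had intervals that left out 1. By the 1.5-fold limit with at least 20 UMIs, 18 were called, and 11 under the stricter naming rule. The share of all genes past that limit was not computed for these groups, so the counts are not read as particular to the inhibitors. In CMZ-like cells Cdkn1c was again lower in the highest group, at 382 against 709 CPM in the albino library and 532 against 783 in the pigmented library. Cdkn2c in the lowest CMZ-like group rested on 1 UMI in each library, and its ratios there were 6.27 [0.91 to 270.0] and 18.2 [3.00 to 745]. Depth moved with these groups: the highest RPC-like groups had medians of 11339 and 10845 UMIs per cell, against 9156 and 8311 in the lowest, and its part in the ratios was not tested.

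**Figure D4:**
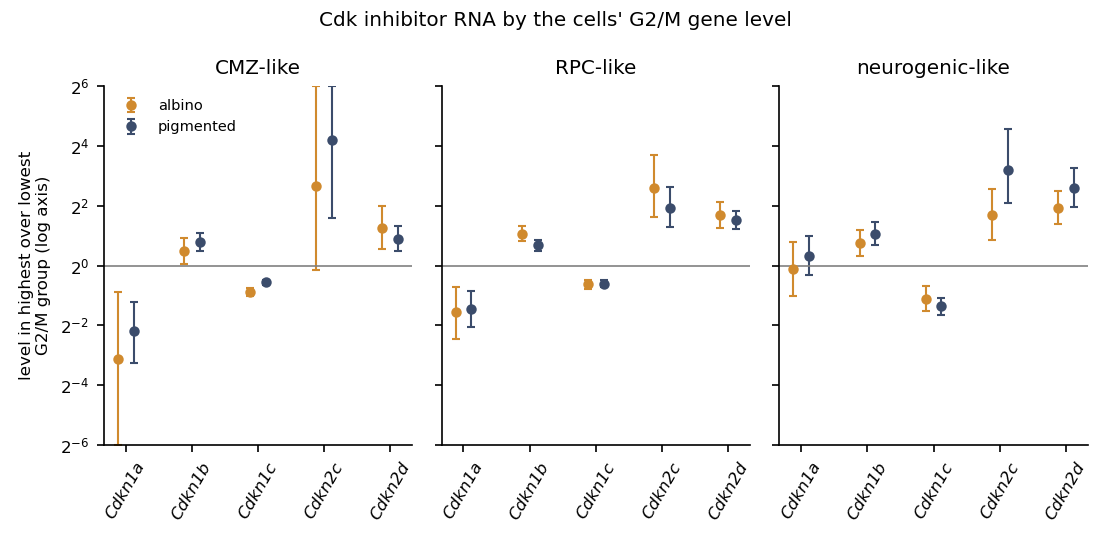
Ratio of each gene's level in the group of cells with the highest share of G2/M UMIs over the group with the lowest, out of 3 of equal size (log axis, exact 95% intervals), in CMZ-like, RPC-like and neurogenic-like cells of the albino (orange) and pigmented (blue) libraries. Cdkn1b, Cdkn2c and Cdkn2d lie above 1 and Cdkn1c below 1 in all 3 classes, and some Cdkn1a and Cdkn2c intervals of CMZ-like cells run past the ends of the axis.

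Because Cdkn1b, Cdkn2c and Cdkn2d were higher in the same cells by this ranking, their promoter sequences were read for motifs that are common in promoters of cell cycle genes. RefSeq promoter entries (build GRCm38.p6) were found for 4 of the 5 genes, 6 entries in all, and the 250 bases before each start were searched on both strands for the CCAAT box, for the cell cycle element TTTGAA, for the E2F motif TTTNNCGC and for the E-box CANNTG. A match to CCAAT was found in the Cdkn1b window on the plus strand, at 161 and 35 bases before the start, and in the Cdkn2d window in reverse as ATTGG. Of 32851 promoters of the same length, 33.8% held CCAAT. None of the 6 entries held TTTGAA or TTTNNCGC, which 15.99% and 4.28% of promoters hold. Cdkn1c had no entry and was not searched. An E-box, in 66.2% of promoters, was found in 1 Cdkn1a entry. The stretches below are the parts outside annotated exons, given 5′ to 3′ on the gene's strand with CCAAT or its reverse in capitals. A further Cdkn2c window, chr4:109666757-109667006, had no match to CCAAT and lay wholly within annotated exons, so it is not shown. Positions are chr6:134920151-134920400 (plus strand) for Cdkn1b, chr4:109665373-109665609 (minus strand) for Cdkn2c, and chr9:21291408-21291459 (minus strand) for Cdkn2d.
Cdkn1b: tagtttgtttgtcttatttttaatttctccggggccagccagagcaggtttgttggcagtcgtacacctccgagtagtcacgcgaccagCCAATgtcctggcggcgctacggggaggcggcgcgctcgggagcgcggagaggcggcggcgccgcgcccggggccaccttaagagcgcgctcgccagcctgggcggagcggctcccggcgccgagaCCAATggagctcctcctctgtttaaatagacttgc
Cdkn2c: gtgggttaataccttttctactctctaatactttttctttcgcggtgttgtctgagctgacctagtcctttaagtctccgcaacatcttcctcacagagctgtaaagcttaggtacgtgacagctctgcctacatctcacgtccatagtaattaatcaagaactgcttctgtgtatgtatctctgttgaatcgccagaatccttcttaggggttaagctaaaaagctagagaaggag
Cdkn2d: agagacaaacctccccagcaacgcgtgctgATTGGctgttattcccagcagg
The Cdkn1b stretch holds both matches, the Cdkn2c stretch none, and the Cdkn2d stretch the single reversed match.

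In precursor-like cells, which carry genes of newly formed neurons, most of the inhibitors stood lower again. Relative to neurogenic-like cells, 4 of the 5 genes were called lower and 1 higher in the albino library, and 3 lower and 0 higher in the pigmented library. Among all genes 15.2% and 15.7% were called lower and 23.2% and 22.3% higher. Median log2 ratios were −1.41 and −0.75 for the 5 genes, against 0.12 and 0.10 over all genes. Cdkn2c had ratios of 0.18 [0.12 to 0.25] and 0.22 [0.17 to 0.30]. Cdkn1a had ratios of 0.26 [0.17 to 0.41] and 0.33 [0.25 to 0.43], and Cdkn2d of 0.38 [0.31 to 0.45] and 0.60 [0.51 to 0.69]. Cdkn1b was lower by 1.5-fold only in the albino library, at 0.64 [0.55 to 0.74], with 0.70 [0.62 to 0.79] in the pigmented library. Cdkn1c stood higher in precursors, at 1.77-fold [1.56 to 2.02] in the albino and 1.29-fold [1.17 to 1.42] in the pigmented library. With the inhibitors and their pathway genes kept in the clustering, the pigmented Cdkn1c ratio was 2.01 and the Cdkn2d ratio 0.39. Under the stricter naming rule the ratios were 0.62 and 2.12 for Cdkn2c, 1.03 and 2.39 for Cdkn2d, 0.99 and 1.13 for Cdkn1b, and 1.02 and 0.78 for Cdkn1c.

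What Cdkn2c remained in precursors sat in the clusters with G2/M genes. Cluster 16, an Otx2 or Neurod precursor cluster with 9900.4 and 8425 CPM of G2/M genes, held 24 and 41 Cdkn2c UMIs, while cluster 9 of the same class held 2 and 0 from more cells. Cluster 15, a Dlx or Gal precursor cluster with 7834 and 7115 CPM of G2/M genes, held 19 and 35 Cdkn2c UMIs, against 1 and 0 in cluster 5. Between the precursor kinds, Otx2 or Neurod precursors had more Cdkn1c than Dlx or Gal precursors, 1.78-fold [1.58 to 1.999] in the albino and 1.66-fold [1.51 to 1.82] in the pigmented library, where 11.0% and 10.3% of all genes were called higher. Cdkn1a was called higher there too, at 4.26-fold [1.95 to 10.3] and 1.52-fold [1.02 to 2.28], as was Cdkn2c at 1.85-fold [0.99 to 3.49] and 1.66-fold [1.04 to 2.66], so in all 3 of the 5 genes were called.

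Postmitotic neurons were set against RPC-like cells to follow the genes out of the cycle. In each library 3 of the 5 genes were called higher and 1 lower, where 26.4% and 25.7% of all genes were higher and 31.8% and 31.4% lower. Median log2 ratios were 0.75 and 0.86, against −0.09 and −0.08 over all genes. Cdkn1a was 2.53-fold [1.96 to 3.30] and 1.82-fold [1.42 to 2.33] higher, and the pigmented value ranged from 1.44 to 3.15 under the alternatives. Cdkn1c was 1.69-fold [1.60 to 1.78] and 2.03-fold [1.93 to 2.13] higher, the albino value being 1.44 with mitochondrial, ribosomal protein and haemoglobin genes left out of the total. Cdkn2d was 3.36-fold [3.01 to 3.76] and 2.77-fold [2.52 to 3.05] higher. Cdkn1b differed little, with ratios of 0.95 [0.86 to 1.05] and 0.98 [0.90 to 1.07]. Cdkn2c was nearly absent, with 5 UMIs in 826 albino and 7 in 813 pigmented postmitotic cells, ratios of 0.04 [0.01 to 0.10] and 0.07 [0.03 to 0.14]. With called doublets kept those ratios were 0.11 and 0.17.

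Against neurogenic-like cells 1 of the 5 genes was called higher and 2 lower in each library, shares close to those of all genes, of which 33.2% and 31.9% were higher and 24.6% and 23.4% lower. Cdkn1c was 2.75-fold [2.44 to 3.12] and 2.38-fold [2.18 to 2.61] higher in postmitotic cells, while Cdkn2d differed by less than 1.5-fold, at 1.16 [1.01 to 1.33] and 1.39 [1.22 to 1.59]. Cdkn2c was called lower in both. Under the stricter naming rule, where the class is cluster 20 alone, Cdkn2d was 3.18-fold and 5.56-fold higher in postmitotic cells. Cdkn1c was then 1.59-fold and 1.44-fold higher, below the 1.5-fold limit in the pigmented library, and Cdkn2c had ratios of 0.04 and 0.20. The lower call for Cdkn1b held in the albino library only, at 0.66 [0.58 to 0.76], and that for Cdkn1a in the pigmented library only, at 0.39 [0.30 to 0.50]. By the stricter rule Cdkn1b had ratios of 1.03 and 1.198, and Cdkn1a 1.104 and 0.62.

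The levels of some inhibitors differed between the 3 kinds of postmitotic cell. Large shares of all genes, given below, were also called in these comparisons, so the calls are not read as particular to these genes. RGC-like cells carried Cdkn2d: relative to precursor-like cells it was 3.27-fold [2.83 to 3.79] and 2.58-fold [2.29 to 2.90] higher, where 44.4% and 43.7% of all genes were called. Cdkn1a was 2.91-fold [2.03 to 4.29] higher there in the albino library but 1.04-fold [0.77 to 1.39] in the pigmented library. Cdkn2c was called lower in both, and Cdkn1b and Cdkn1c in neither. The largest precursor cluster, cluster 5 with 515 cells, had Pou4f2 as its first leading gene and Isl1 among the others, both also RGC markers. Cdkn2d was kept in 43.4% and 39.3% of RGC-like cells after thinning, against 16.7% and 25.8% of photoreceptor-like cells. Amacrine or horizontal-like cells carried Cdkn1c, 3.90-fold [3.56 to 4.26] and 4.08-fold [3.79 to 4.40] above RGC-like cells, and less Cdkn2d, at 0.40 [0.27 to 0.58] and 0.39 [0.28 to 0.52]. Cdkn1a was called lower there in both libraries, at 0.09 and 0.26, Cdkn1b in neither, and Cdkn2c had too few UMIs. In that comparison 43.9% and 40.4% of all genes were called. Their Cdkn1c was uneven: 29.4% of the cells in both libraries kept 5 or more UMIs after thinning, 14.7% and 19.8% kept none, and 1 pigmented cell kept 74. Photoreceptor-like cells carried Cdkn1a, 3.83-fold [1.99 to 7.22] and 3.05-fold [1.91 to 4.79] above Otx2 or Neurod precursors, where 44.2% and 45.2% of all genes were called. Cdkn1b was higher there as well, at 1.47-fold [1.05 to 2.03] and 1.90-fold [1.53 to 2.35], reaching the 1.5-fold limit in the pigmented library only. Cdkn2c was called lower, at 0.44 [0.05 to 1.77] on 2 and 26 UMIs and 0.12 [0.003 to 0.70] on 1 and 41 UMIs. Cdkn1c and Cdkn2d were called in neither library.

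The RGC-like class was itself divided by Cdkn1c. Cluster 6, led by Sst, Sncg and Nrn1, held 339 and 353 CPM, against 166 and 159 in cluster 2, led by Ccer2 and Igfbpl1, ratios of 2.04 [1.88 to 2.22] and 2.22 [2.02 to 2.43]. Cdkn2d differed less between them, with ratios of 1.31 [1.16 to 1.47] and 1.22 [1.06 to 1.39], and Cdkn1b had ratios of 0.84 [0.72 to 0.98] and 0.87 [0.73 to 1.04].

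Most retinal cells carried at least 1 of the 5 genes. After thinning to 5000 UMIs, the share with a UMI of any of them was 85.3% and 89.1% in CMZ-like cells, 70.3% and 71.3% in RPC-like cells, 79.7% and 77.8% in neurogenic-like cells, 64.1% and 65.5% in precursor-like cells and 82.8% and 81.5% in postmitotic cells. For each of 100 combinations of gene pair, class and library, the share of cells with both genes was set beside the product of the separate shares, and in 4 the exact interval left out the product. Cdkn2c and Cdkn2d were found together more often than the product in precursor-like cells, 2.32 and 2.28 times, on 8 and 11 cells, and 1.75 times in pigmented RPC-like cells, on 27 cells. Cdkn1c and Cdkn2d were found together less often in pigmented RPC-like cells, 0.83 times the product. At 3000 UMIs 0 of the combinations did so, so the data do not settle which genes share cells.

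The genes whose level moved most like each inhibitor were found by Pearson correlation of log2(CPM + 10) over 42 pools of 1 cluster in 1 library, among 9811 genes. The pools share libraries and depths, so the values describe likeness only, and with log2(CPM + 1) 7 of the 15 genes named here were named again. Cdkn2c was most like Pbk (r = 0.91), Ube2t (0.90) and Cntrob (0.89), Pbk and Ube2t being a mitotic kinase and a ubiquitin-conjugating enzyme of DNA repair. Cdkn2d was most like Ywhah (0.84), a 14-3-3 protein gene, Arhgap33 (0.83) and Ppp2r2d (0.79). Cdkn1c was most like Aopep (0.83), Zfp503 (0.82) and Lhfp (0.79). Cdkn1b was most like Zfp608 (0.79), Tdrkh (0.77) and Atp6ap2 (0.77), and Cdkn1a like Itga4 (0.67), Cldn34c1 (0.60) and Insm1 (0.59), a transcription factor gene of new neurons. Between inhibitors, Cdkn1b and Cdkn1c had r = −0.54 and Cdkn1b and Cdkn2d r = 0.53.

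The kinases and cyclins that the inhibitors bind were followed in the same comparisons, in a list that also held Rb1, which is neither a kinase nor a cyclin gene. Of 15 partner genes, 7 were called higher and 3 lower in albino neurogenic-like over RPC-like cells, and 6 higher and 4 lower in pigmented cells, with median log2 ratios of 0.51 and 0.52. Among all genes 11.0% and 10.6% were higher and 26.0% and 25.2% lower, so the partners' lower share was near that of all genes. Ccna2 (cyclin A2) was 2.27-fold and 2.003-fold higher, Cdk1 2.18-fold and 1.99-fold, Ccne2 (cyclin E2) 1.67-fold and 2.06-fold, and Rb1, the retinoblastoma gene, 2.31-fold and 2.20-fold. The D-type cyclin gene Ccnd3 went the other way, at 28.1 and 35.6 CPM against 113 and 117, and so did Cdk6, at ratios of 0.33 and 0.60. In precursor-like over neurogenic-like cells 10 of 15 partners were lower and 0 higher in the albino library, and 11 lower and 1 higher in the pigmented library, where 15.2% and 15.7% of all genes were lower and 23.2% and 22.3% higher. In postmitotic over RPC-like cells 12 were lower in both libraries, where 31.8% and 31.4% of all genes were lower and 26.4% and 25.7% higher, and Rb1 alone was higher, at 2.43-fold and 2.28-fold. Of the 5 inhibitors only Cdkn2c was called lower there.

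Genes that act on inhibitor proteins were measured too. Skp2, the subunit of the ligase that marks Cdkn1b protein for destruction, was at 87.6 and 74.4 CPM in neurogenic-like cells, against 55.5 and 48.5 in RPC-like cells, ratios of 1.58 and 1.54. Of the 11 turnover genes it alone was called higher in both libraries, where 2 were lower in the albino and 0 in the pigmented library, beside 11.0% and 10.6% of all genes higher and 26.0% and 25.2% lower. In precursor-like over neurogenic-like cells Skp2 had ratios of 0.13 and 0.21, Cks1b, its cofactor, 0.54 and 0.59, and Dtl, which targets Cdkn1a protein, 0.10 and 0.12. There 3 of the 11 were lower in each library and 1 was higher in the albino library only, beside 15.2% and 15.7% of all genes lower and 23.2% and 22.3% higher.

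Cdkn1a was set beside 14 genes of the p53 response. In neurogenic-like over RPC-like cells, where Cdkn1a was higher, 2 of 11 measured were called higher and 4 lower in the albino library, and 2 of 12 higher and 3 lower in the pigmented library. These shares were near those of all genes, of which 11.0% and 10.6% were higher and 26.0% and 25.2% lower. Btg2, also a known gene of neuron-forming divisions, was 6.76-fold and 6.20-fold higher, while Bbc3, Ccng1 and Phlda3 were lower in both. In postmitotic over RPC-like cells 5 of 11 were higher and 2 lower in the albino library, and 6 of 11 higher and 2 lower in the pigmented library, beside 26.4% and 25.7% of all genes higher and 31.8% and 31.4% lower. Bbc3 was 3.98-fold and 3.59-fold higher, Trp53inp1 6.74-fold and 8.64-fold, and Bax 1.95-fold and 1.78-fold, while Trp53 itself had ratios of 0.48 and 0.55.

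Cdkn1c lies in an imprinted domain with the non-coding RNA Kcnq1ot1. In CMZ-like over RPC-like cells, where Cdkn1c was called higher, Kcnq1ot1 was at 219 against 238 CPM in the albino and 241 against 259 in the pigmented library. Of the measured domain genes 0 of 4 were called in the albino and 1 of 5, Phlda2, in the pigmented library, at 2.35 against 0.45 CPM, beside 7.42% and 8.51% of all genes higher and 9.92% and 11.3% lower. In postmitotic over RPC-like cells, where Cdkn1c was higher, 3 of 4 domain genes were lower in both libraries, beside 31.8% and 31.4% of all genes, Kcnq1ot1 with ratios of 0.56 and 0.54. Cdkn1c overlaps Gm44732 and Cdkn1a overlaps AC167363.2 on the opposite strand, and no source used here says whether counting used the strand. Of the other inhibitors, Cdkn2a had 2 and 5 UMIs and Cdkn2b 10 and 6 UMIs over all cells, too few to compare.

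Albino cells were last set against pigmented cells. Over all cells 0 of the 5 genes were called, while 10.3% of all genes were, and the median log2 ratio was −0.03, against −0.05 over all genes. Cdkn2d had the ratio farthest from 1, at 59.2 CPM in albino and 46.8 in pigmented cells, 1.26 [1.20 to 1.33]. RGC-like cells, its highest class, made up 19.8% of albino and 9.63% of pigmented cells, and within RGC-like cells the ratio was 1.06 [0.97 to 1.16]. The Cdkn2d ratio was 1.33 [1.12 to 1.57] in neurogenic-like and 0.84 [0.71 to 0.98] in precursor-like cells. In CMZ-like and RPC-like cells it was 1.05 and 0.91, with intervals that included 1. The part of class shares in the ratio over all cells was not tested. Cdkn1a, Cdkn1b and Cdkn2c had ratios of 1.06, 0.95 and 0.98 over all cells, and Cdkn1c 0.88 [0.86 to 0.90].

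By class, 0 of the 5 genes were called in CMZ-like cells (7.73% of all genes), RPC-like cells (5.38%) and neurogenic-like cells (9.95%), 1 in precursor-like cells (6.79%), and 0 of the 4 with enough UMIs in postmitotic cells (9.47%). Median log2 ratios of the inhibitors lay between −0.08 and 0.08. The called gene was Cdkn1a in precursors, at 5.80 CPM in albino and 10.1 in pigmented cells, a ratio of 0.57 [0.38 to 0.85] on 36 and 105 UMIs. In Dlx or Gal precursors alone it was 0.30 [0.13 to 0.61], on 9 and 52 UMIs, where 8.23% of all genes were called. In Otx2 or Neurod precursors it was 0.83 [0.50 to 1.34], and their clusters went opposite ways: cluster 16 had 0.40 [0.17 to 0.82], on 9 and 45 UMIs, and cluster 9 had 3.30 [1.37 to 8.77], on 18 and 8 UMIs. Kept to cells with Xist and without Y-linked UMIs, the Cdkn1a ratio in RPC-like cells was 1.62, against 1.01 over all RPC-like cells. In RGC-like cells Cdkn1a pointed the other way, at 16.9 and 10.5 CPM, a ratio of 1.62 [1.24 to 2.12], where 6.79% of all genes were called. The other called gene among the smaller classes was Cdkn2d in photoreceptor-like cells, at 40.3 CPM in albino and 70.4 in pigmented cells, a ratio of 0.57 [0.32 to 0.98] on 18 and 60 UMIs, where 18.3% of all genes were called. For Cdkn1a in RGC-like cluster 2 the ratio was 2.18 [1.46 to 3.32], and in cluster 6 it was 1.20 [0.84 to 1.75].

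Cdkn1c was lower in albino CMZ-like cells by less than 1.5-fold, at a ratio of 0.79 [0.76 to 0.83]. In cluster 14, with G2/M genes, the ratio was 0.70 [0.64 to 0.76], in cluster 10 it was 0.82 [0.76 to 0.89], and in cluster 4, which had the most Cdkn1c, it was 0.95 [0.89 to 1.01]. Of 357 albino CMZ-like cells 142 were in cluster 4, and of 813 pigmented CMZ-like cells 390. Cdkn1c was also lower in albino neurogenic-like cells, at 0.76 [0.66 to 0.88], and slightly higher in albino RPC-like cells, at 1.06 [1.01 to 1.12]. Cdkn1b had ratios between 0.92 and 1.03 in the 5 classes, and each interval included 1.

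**Figure D5:**
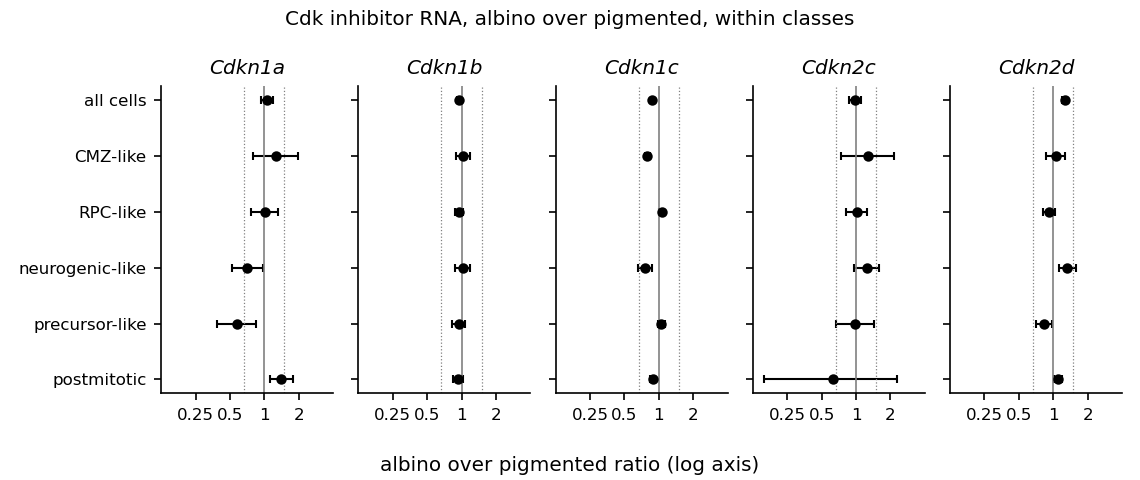
Albino over pigmented ratio of each gene's level (log axis, exact 95% intervals) in all cells and in 5 classes, with dotted lines at 1.5-fold either way. Cdkn1b stays near 1 in every class, and Cdkn1a lies below 1 in precursor-like cells (0.57) and above 1 in postmitotic cells (1.41).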

How the data were processed

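The files deposited by the authors give raw UMI counts for each gene in each barcode. Cells had been dissociated with papain and prepared with a 3′ v2 droplet kit, per the labels' protocols. The submitters' processing notes name the build mm10 and Cell Ranger 2.1.1. Per the file headers it was Cell Ranger 5.0.1, and no source used here settles which version made the counts.

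Barcodes needed 500 genes or more and no more than 10% mitochondrial UMIs. Scrublet, run per library in Scanpy 1.11.5, called 1.06% of albino and 2.82% of pigmented barcodes doublets, which were removed. The 2000 most variable genes, leaving out haemoglobin, ribosomal protein and mitochondrial genes and also the inhibitors and their pathway lists, gave 30 principal components and a graph of 15 neighbours, clustered by leidenalg 0.10.2 at resolution 1.0 with both libraries together. Each cluster was given the class whose markers had the greatest mean log2 fold in it (pseudocount 10 CPM), provided that this led the next class by 0.3 and that 3 or more of the markers were each in 10% of its cells. It stayed unnamed where another class led it in markers among its top 10 genes, or where its median depth fell under that of all cells by more than 3 times. Competition among the neurogenic and both precursor lists was left out of the margin, a choice made after the clusters were seen. A margin to every other class was then added as an alternative. In all, 5.35% of albino and 5.41% of pigmented cells were in unnamed clusters.

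Levels have exact Poisson intervals, shares exact Clopper-Pearson intervals and ratios conditional exact intervals, at 95%. List medians add 1 UMI to each side. Levels of 0 were read against 3 counts. Thinned shares leave out cells under 5000 UMIs. Counts over 1.5-fold were taken over all genes with at least 20 UMIs over both sides. Gene positions follow GENCODE vM21 and promoter sequences RefSeq. The interval and call code was tested on simulated data. Other tools were Python 3.11.15, NumPy 2.4.6, SciPy 1.17.1, pandas 2.3.3, scikit-learn 1.9.0 and matplotlib 3.10.9. The 5 genes and the lists were chosen with earlier results of these data known. Named genes are the inhibitors, the 3 genes most like each by correlation, the 4 list members with the most UMIs, and list members past 1.5-fold. Some marker and cluster genes are not reported here.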

Additional observations from a re-analysis of the deposited data

Results flagged for a closer look

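For 3 inhibitors the albino over pigmented ratio lay on opposite sides of 1 in different classes, each beyond counting error, and the difference between classes was not tested. Cdkn1a had ratios of 0.712 in neurogenic-like, 0.574 in precursor-like and 1.41 in postmitotic cells. Cdkn1c had ratios of 0.794 in CMZ-like, 0.763 in neurogenic-like and 0.882 in postmitotic cells, and 1.06 in RPC-like cells. Cdkn2d had ratios of 1.33 in neurogenic-like, 0.836 in precursor-like and 1.11 in postmitotic cells. With 1 library per group, these values describe 2 libraries.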

How the results depend on the processing

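Of 239 recomputed counts of called genes, called ratios or gene pairs, 219 stayed within 1.5 times the reported count and 20 moved. Of 1121 recomputed values of single genes, 990 kept within their interval, 124 moved and 7 changed sign. These values are ratios, save for the count of genes most like an inhibitor that were named again, which was among those moved. A change of sign was counted only for ratios called at 1.5-fold in the main setting. Other ratios that crossed 1 were counted as moved or as kept. An example is pigmented Cdkn1a in CMZ-like over RPC-like cells, at 0.72 in the main setting and up to 1.85. All 7 counted changes of sign came with the naming margin taken to every other class, which by construction takes cluster 8 out of the neurogenic-like class. On the log2 scale they were, in the albino library, 0.0883 for Cdkn1c in neurogenic-like over RPC-like, 0.0479 for Cdkn2d in precursor-like over neurogenic-like and 0.0372 for Cdkn1b in postmitotic over neurogenic-like cells, and in the pigmented library −1.55 for Cdkn2c and −1.004 for Cdkn2d in neurogenic-like over RPC-like, and 1.09 for Cdkn2c and 1.26 for Cdkn2d in precursor-like over neurogenic-like cells. That margin also gave 1 called gene for albino neurogenic-like over RPC-like, 2 for albino precursor-like over neurogenic-like and 1 for albino over pigmented neurogenic-like cells. Of the 20 ratios between cells high and low in G2/M genes, 11 then reached the 1.5-fold limit. No share of all genes was computed under that margin or for the G2/M groups.

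For the other settings the cause was not tested. The share of all genes was not recomputed under them, so the counts below have none beside them. Resolution 0.6 gave 4 called genes for CMZ-like over RPC-like cells in each library, 5 for pigmented neurogenic-like over RPC-like and precursor-like over neurogenic-like cells, and 1 for albino over pigmented CMZ-like cells. Clusters made with the list genes gave 5 in the same pigmented comparisons. Between libraries, equal weighting of cells gave 1 called gene in CMZ-like cells, and cells of 5000 to 20000 UMIs gave 2 there and 1 in postmitotic cells. A margin of 0.5 gave 1 in postmitotic cells. Cells with Xist and without Y-linked UMIs gave 1 each in RPC-like and neurogenic-like cells. Clusters without S phase and G2/M genes, and classes without the top cell, gave 1 in neurogenic-like cells. Thinning to 3000 UMIs left 0 gene pairs. No paired analysis was possible because each group has 1 library.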
